A study of Homo sapiens with 6 samples.

Results

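Cells put methyl groups on arginine residues of proteins and later clear the free methylarginines that are released when those proteins are broken down, and the 9 genes described here encode enzymes of both ends of this route. DDAH1 and DDAH2 are the dimethylarginine dimethylaminohydrolases, and PRMT1, PRMT2, PRMT3, PRMT5, PRMT6, PRMT7 and CARM1 (also known as PRMT4) are protein arginine methyltransferases. They were taken by gene symbol from a table of 40173 genes, and all 9 were among the 15250 genes that passed a filter on low counts. The family was chosen from results of the same comparison, in which DDAH2 and PRMT6 stood out. Their levels and fold changes are therefore given as a description with no p-value. Where members are counted by a threshold, the count comes from the values that chose them and is no evidence, while the other genes of the route were tested.

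RNA of the cells was measured by RNA-Seq in 3 control libraries and 3 libraries in which the long noncoding RNA FAM83H-AS1 had been silenced. The cells carry the label A549, a human lung adenocarcinoma line. The control cells received a negative control siRNA and the silenced cells an siRNA against FAM83H-AS1, and all were harvested on the day after transfection. The study lists more than 1 siRNA against FAM83H-AS1 and does not state which was used for these libraries, so an effect of the siRNA sequence itself cannot be told apart from an effect of silencing. The labels do not say that replicates came from separate cultures, so the p-values measure only the spread between these samples, which may be technical.

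The 6 libraries held between 9738291 and 17742643 counts, and 3 counts correspond to 0.169 to 0.308 CPM (counts scaled to 1000000 per library). Control replicate 3 stood apart: RNA5-8SP6, a pseudogene of ribosomal RNA, took 3.22% of its counts and at most 0.448% in any other library. FAM83H-AS1 had 141, 185 and 292 counts in control replicates 1, 2 and 3 and 47, 48 and 75 counts in silenced replicates 1, 2 and 3, and its level in the silenced cells was 30.6% of that in the control cells. The keratins KRT8 and KRT18 of simple epithelia were abundant, at 1863 and 1316 CPM in control cells. KRT19, EPCAM and CDH1 from the same marker list were low in control cells, at 0.944, 3.86 and 0.780 CPM. The listed A549 markers NQO1 and AKR1C1 were at 191 and 96.3 CPM. Several other markers went against the A549 label. ALDH1A1, which A549 cells are known to express strongly, had 0 counts in 5 libraries and 2 in the other, and AKR1B10, likewise known to be abundant in A549, was at 0.843 CPM in control cells. CDKN2A, CDKN2B and MTAP, which lie in a region commonly described as deleted in A549, were at 62.9, 13.4 and 38.3 CPM. The blood cell markers CD3E and HBB had 0 counts in all 6 libraries and PTPRC at most 1. CD68, which is also a lysosomal protein of other cells, rose from 130 to 239 CPM (adjusted p = 9.93e-05 by edgeR), so that the 5 blood cell markers together lay at 124 to 142 CPM in control and 226 to 255 CPM in silenced libraries. The keratins KRT7 and KRT18 fell (adjusted p = 0.00116 and 0.00266). Of the 11 epithelial and A549 markers, 3 fell and 1 rose, and their sum lay at 4763 to 5115 CPM in control and 3879 to 3926 CPM in silenced libraries. The part of these markers in the results was not tested. In bulk RNA, fewer cells with a transcript and less of it per cell cannot be told apart.

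Arginine methyltransferases take the methyl group from S-adenosylmethionine. Type I enzymes (PRMT1, PRMT2, PRMT3, CARM1 and PRMT6) make asymmetric dimethylarginine, the type II enzyme PRMT5 makes symmetric dimethylarginine, and the type III enzyme PRMT7 stops at monomethylarginine. Histones and many RNA-binding proteins carry these marks. When such proteins are degraded, free asymmetric dimethylarginine and monomethylarginine appear, which inhibit nitric oxide synthases, and DDAH1 hydrolyses them to citrulline and an amine. DDAH2 was named for its similarity to DDAH1, and its own activity on methylarginines is debated.

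The word CCAATAA, searched on the mRNA strand because it had drawn attention in these data before, occurred in an annotated 3′-UTR of DDAH2, PRMT6 and PRMT1 and of no other member. The word and the members were both picked from fold changes of this comparison, so that finding them together is a description and no independent observation. Each site is shown with 10 flanking bases on either side, 5′ to 3′ on the mRNA strand, the word in capitals, from GENCODE 29 transcripts on GRCh38. The DDAH2 site lies at chr6:31727048-31727074 on the minus strand, the PRMT1 site at chr19:49688418-49688444 on the plus strand and the PRMT6 site at chr1:107058992-107059018 on the plus strand.
DDAH2: cctctcagaaCCAATAAaatagaattg
PRMT1: tgcatttacgCCAATAAatcctcagct
PRMT6: atccttgtagCCAATAAaacattgaca

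In all 3 the next base is an A, so that the word overlaps AATAAA, the usual signal for cleavage and polyadenylation. In DDAH2 and PRMT1 it is the signal near the transcript end, starting at base 173 of a 3′-UTR of 199 bases and at base 183 of 202. In PRMT6 it starts at base 1159 of 1451, which leaves 286 bases to the annotated end. PRMT6 has another signal there, ATTAAA, at chr1:107059258-107059283. The signals within the last 60 bases of the other members' principal transcripts are shown for comparison, with the hexamer in capitals.
PRMT6, end of transcript: ttcattgcatATTAAAgtattagagt
DDAH1: atcacaatggAATAAAgtgttgagtt
PRMT2: gcacatgctcAATAAAtatttttaaa
PRMT3: tgaaatgtagAATAAAa
PRMT5: aggaaatacaAATAAAgttatagccc
CARM1: ttgcatagaaAATAAAagtgtttgct

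None of these 6 hexamers was preceded by CC. In PRMT7 neither AATAAA nor ATTAAA was found in that window. Of the 11551 tested genes with an annotated 3′-UTR, 1469 (12.7%) held the word, and the median log2 fold change was -0.08 for them and 0.01 for the genes without it. A match of letters is a description and names no cause.

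DDAH2 was the more abundant of the dimethylaminohydrolases in control cells and fell below DDAH1 in counts after silencing. The gene lies at chr6:31727038-31730617 on the minus strand, and its principal transcript has 6 exons. It had 630, 687 and 997 counts in control replicates 1, 2 and 3 and 295, 253 and 358 counts in silenced replicates 1, 2 and 3. Scaled to the normalized library size, these were levels of 64.8, 59.3 and 58.9 CPM in the control and 28.8, 23.4 and 26.6 CPM in the silenced libraries. The 3 silenced libraries lay below all 3 controls, and the gap between the groups was wider than the range within either. The mean level went from 61.0 ± 3.26 CPM (SD, n = 3) to 26.3 ± 2.72 CPM (SD, n = 3), 43.1% of control. The log2 fold change was -1.21 (standard error 0.0933), which ranked 158 from the lowest of 15250. At its 5′ end, 37 of the 2538 exon bases of DDAH2 overlap CLIC1 on the same strand. CLIC1, a chloride intracellular channel protein, had levels of 489 ± 6.44 CPM in control and 529 ± 21.2 CPM in silenced libraries (SD, n = 3 each; log2 fold change 0.12, adjusted p = 0.247 by edgeR).

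DDAH1, the enzyme with the established activity on free dimethylarginine, went the other way. It lies at chr1:85318481-85578363 on the minus strand, with 6 exons and a 3′-UTR of 2967 bases in its principal transcript. Its counts were 300, 331 and 464 in the control and 403, 472 and 435 in the silenced libraries, or 30.8, 28.6 and 27.4 CPM against 39.4, 43.6 and 32.3 CPM. Every silenced library was higher than every control library, but silenced replicate 3 was only slightly above control replicate 1. The mean went from 28.95 ± 1.73 to 38.4 ± 5.71 CPM (SD, n = 3 each), 133% of control, with a log2 fold change of 0.41 (standard error 0.113). A long intergenic noncoding RNA gene, AC092807.3, shares 383 of the 4568 exon bases of DDAH1 on the same strand and was not analysed here.

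Within a library the ratio of the 2 hydrolases does not depend on the scaling between libraries. For control replicates 1, 2 and 3 there were 2.10, 2.08 and 2.15 DDAH2 counts per DDAH1 count, and for silenced replicates 1, 2 and 3 there were 0.732, 0.536 and 0.823. The control ratios thus differed little among themselves, and the silenced ratios spread more but were all below 1. The mean ratio was 2.11 ± 0.0372 in control and 0.697 ± 0.147 in silenced cells (SD, n = 3 each), 33.1% of the control ratio. Per kilobase of principal transcript, the ratio of levels was 4.90 ± 0.0865 in control and 1.62 ± 0.340 in silenced cells, above 1 in each silenced library. With the union of all annotated exons as the length, it was 0.965 in silenced replicate 2, so that which of them was more abundant per length after silencing depends on the length taken. The summed level of DDAH1 and DDAH2 was 95.6, 87.9 and 86.4 CPM in control and 68.2, 67.0 and 59.0 CPM in silenced libraries, 71.9% of control.

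**Figure D1:**
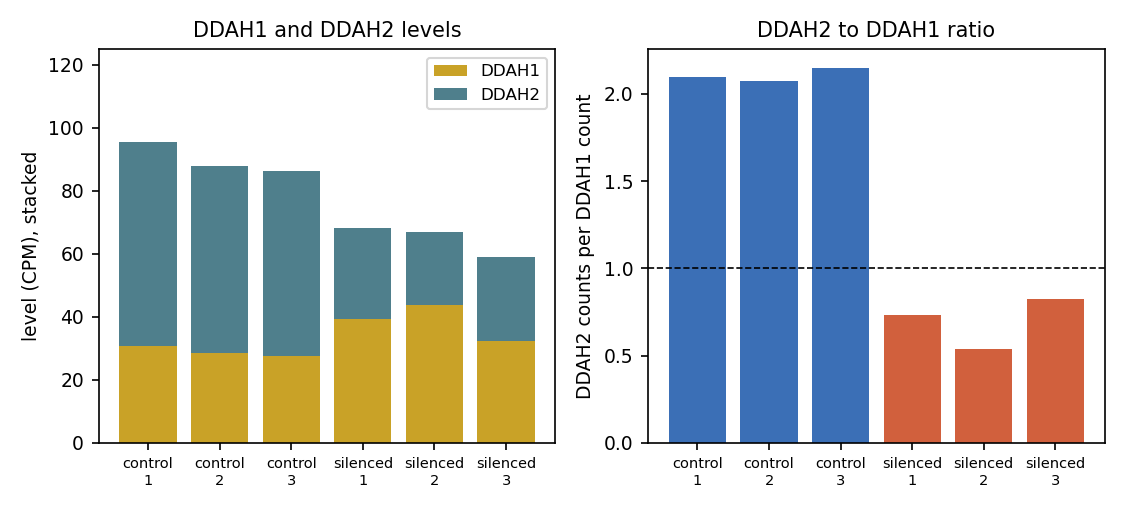
Left, levels of DDAH1 and DDAH2 in CPM, stacked, in each control and silenced library. Right, DDAH2 counts per DDAH1 count (vertical axis), with 1 bar per library and a dashed line at 1. The ratio lies between 2.08 and 2.15 in the control libraries and between 0.536 and 0.823 in the silenced libraries.

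Among the type I enzymes, PRMT6 stood lowest relative to control. PRMT6 is a nuclear enzyme known for asymmetric dimethylation of histone H3, and its gene lies at chr1:107056679-107067636 on the plus strand, with the coding sequence in a principal transcript of 1 exon. It had 455, 503 and 705 counts in the control and 178, 205 and 273 counts in the silenced libraries. These were 46.8, 43.4 and 41.7 CPM against 17.4, 19.0 and 20.3 CPM, a separation of the groups by more than 20 CPM with a spread of a few CPM within each. The mean went from 44.0 ± 2.59 to 18.9 ± 1.46 CPM (SD, n = 3 each), 42.9% of control. The log2 fold change of -1.21 (standard error 0.0946) ranked next to that of DDAH2, at 159 from the lowest.

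PRMT1, the enzyme that makes most of the asymmetric dimethylarginine in many cells, had the highest CPM of the 9 members. It lies at chr19:49675786-49689029 on the plus strand, with 10 exons in its principal transcript. Its counts were 2012, 2150 and 3478 in the control and 1438, 1361 and 1950 in the silenced libraries, or 207, 186 and 206 CPM against 140, 126 and 145 CPM. All silenced libraries were below all controls. The mean went from 199 ± 11.9 to 137 ± 9.98 CPM (SD, n = 3 each), 68.7% of control, with a log2 fold change of -0.54 (standard error 0.0797). In absolute terms this was the largest change in CPM among the 9 members, since PRMT1 started from the highest level. ADM5 shares 366 of the 4796 exon bases of PRMT1 on the same strand and had only 4 to 18 counts per library.

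PRMT3, a cytosolic enzyme that methylates the ribosomal protein RPS2, lies at chr11:20387530-20509294 on the plus strand. It had 271, 338 and 453 counts in control and 202, 230 and 260 counts in silenced libraries, or 27.9, 29.2 and 26.8 CPM against 19.7, 21.3 and 19.3 CPM. The groups did not overlap and both were narrow. The silenced mean of 20.1 ± 1.03 CPM was 71.9% of the control mean of 27.9 ± 1.21 CPM (SD, n = 3 each; log2 fold change -0.47, standard error 0.0934).

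PRMT2, which is known as a coactivator of nuclear receptors and has weak methyltransferase activity, lies at chr21:46635167-46665124 on the plus strand. Its counts were 505, 553 and 826 in control and 430, 368 and 527 in silenced libraries, or 51.9, 47.8 and 48.8 CPM against 42.0, 34.0 and 39.2 CPM. The highest silenced library, replicate 1, was below the lowest control library, replicate 2. The silenced mean of 38.4 ± 4.04 CPM was 77.6% of the control mean of 49.5 ± 2.16 CPM (SD, n = 3 each; log2 fold change -0.37, standard error 0.0917).

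CARM1, a coactivator that methylates histone H3, EP300 and NCOA3, was the only member whose groups overlapped. It lies at chr19:10871513-10923070 on the plus strand. It had 897, 882 and 1490 counts in control and 868, 780 and 1114 counts in silenced libraries, or 92.2, 76.2 and 88.1 CPM against 84.8, 72.1 and 82.8 CPM. In both groups replicate 2 was the lowest. The mean was 85.5 ± 8.33 CPM in control and 79.9 ± 6.80 CPM in silenced cells (SD, n = 3 each), and the log2 fold change of -0.10 was about as large as its standard error of 0.0942. YIPF2 shares 886 of the 4455 exon bases of CARM1 on the opposite strand, and how strands were counted is not given in the sources used here. YIPF2 had levels of 30.1 CPM in control and 29.2 CPM in silenced libraries (log2 fold change -0.03, adjusted p = 0.881 by edgeR).

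PRMT5, the main maker of symmetric dimethylarginine, in spliceosomal Sm proteins among others, lies at chr14:22920511-22929585 on the minus strand. Its counts were 1348, 1828 and 2471 in control and 1258, 1431 and 1575 in silenced libraries, or 139, 158 and 146 CPM against 123, 132 and 117 CPM. The silenced libraries were all below the controls, with a narrow gap between control replicate 1 and silenced replicate 2. The means were 148 ± 9.73 and 124 ± 7.70 CPM (SD, n = 3 each), 84.1% of control, with a log2 fold change of -0.25 (standard error 0.0792). PRMT5-AS1 overlaps 938 of the 3467 exon bases of PRMT5 on the opposite strand and was not analysed here, so reads of the pair cannot be told apart without strand.

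PRMT7, the monomethylating enzyme, lies at chr16:68310974-68358563 on the plus strand. It had 819, 902 and 1411 counts in control and 640, 721 and 903 counts in silenced libraries, or 84.2, 77.9 and 83.4 CPM against 62.5, 66.7 and 67.1 CPM. The groups did not overlap. The silenced mean of 65.4 ± 2.55 CPM was 79.9% of the control mean of 81.8 ± 3.43 CPM (SD, n = 3 each; log2 fold change -0.32, standard error 0.0743). SMPD3, a sphingomyelinase gene that shares 239 exon bases with PRMT7 on the opposite strand, had at most 7 counts in a library.

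**Figure D2:**
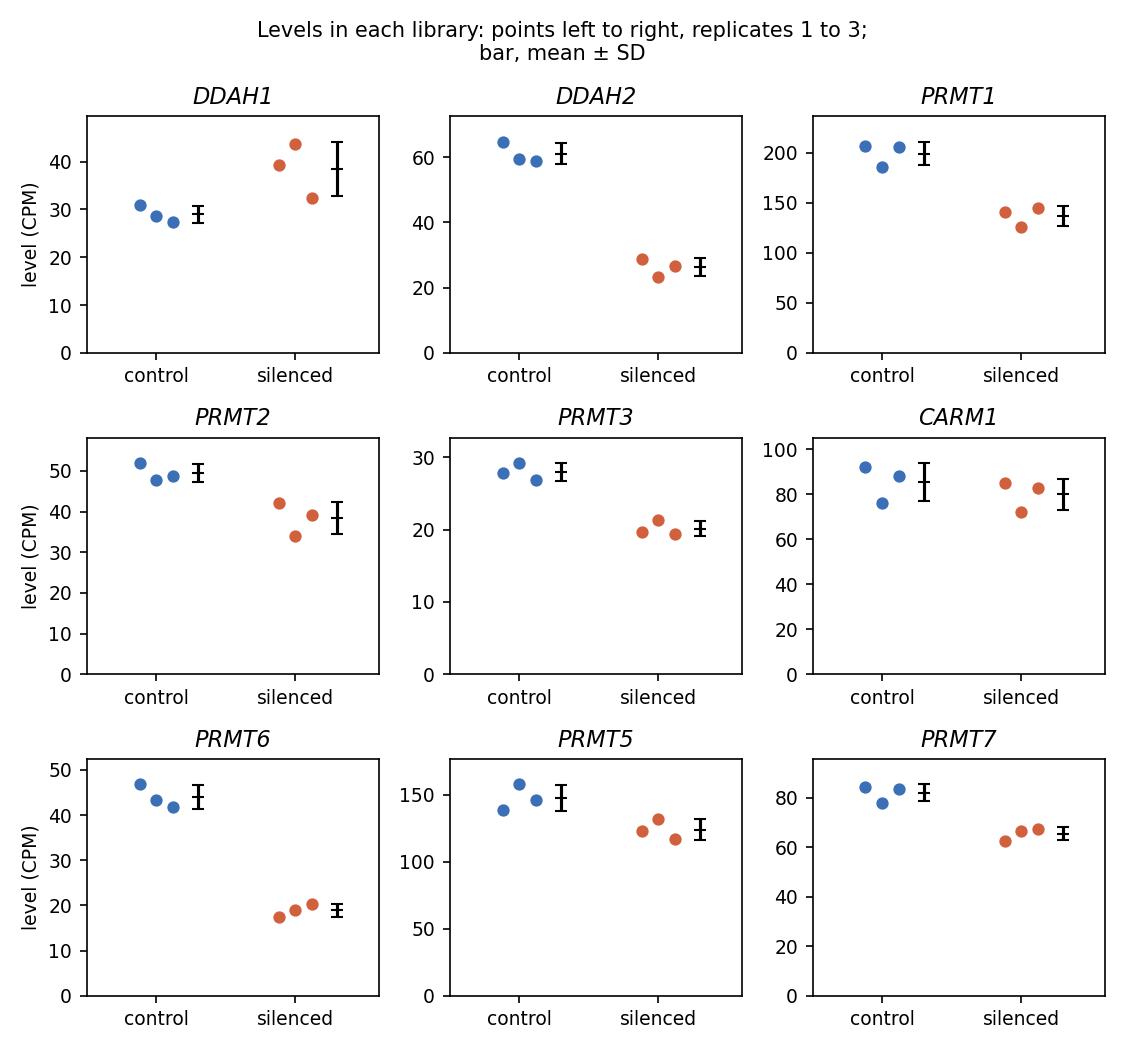
Level of each member in CPM (vertical axes from 0) in the 3 control and 3 silenced libraries, with replicates 1 to 3 from left to right and the group mean ± SD as a bar. The groups are apart in every panel but that of CARM1, and only DDAH1 is higher in the silenced libraries.

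Taken over the family, 8 of the 9 members had a negative log2 fold change, as did 7639 of all 15250 tested genes. The median was -0.37 over the members and -0.000672 over all tested genes. All silenced libraries lay below all controls for 7 members, which held for 17.5% of tested genes, and above all controls for 1 member, which held for 19.1%. At an adjusted p under 0.05 in edgeR's quasi-likelihood test, 6 members were lower (8.27% of tested genes) and 1 was higher (8.75%), PRMT5 and CARM1 being the others. With a fold change over 2 as well, 2 members were called, DDAH2 and PRMT6, both lower (0.997% of tested genes). These counts come from the comparison that the members were chosen on, and nothing is read from them. Just inside that fold threshold were DDAH2 and PRMT6 at -1.21, and the next member outside it was PRMT1 at -0.54. The summed level of the 5 type I enzymes was 426, 382 and 411 CPM in control and 304, 272 and 307 CPM in silenced libraries, 72.4% of control. For all 7 methyltransferases the sum went from 636 ± 15.7 to 484 ± 11.0 CPM (SD, n = 3 each), 76.1% of control.

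**Figure D3:**
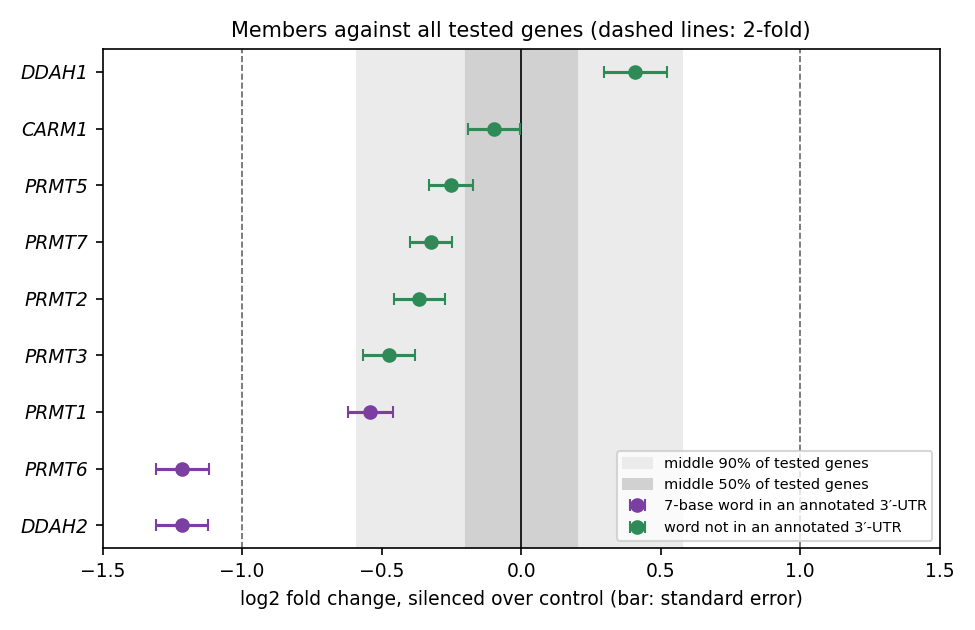
Log2 fold change of each member, silenced over control (horizontal axis), with its standard error as a bar, and the middle 50% and 90% of all tested genes as grey bands. DDAH2 and PRMT6, both at -1.21, lie beyond the dashed line of a 2-fold lower level, PRMT1 at -0.54 lies within the 90% band, and DDAH1 at 0.41 is on the other side of 0.

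Levels can be compared between genes only per length. In CPM per kilobase of the principal transcript, PRMT1 was highest in control cells at 143 ± 8.53, followed by PRMT5 at 58.3 ± 3.84, DDAH2 at 36.2 ± 1.93, CARM1 at 25.7 ± 2.50, PRMT7 at 19.3 ± 0.810, PRMT2 at 17.2 ± 0.749, PRMT6 at 16.8 ± 0.989, PRMT3 at 10.5 ± 0.455 and DDAH1 at 7.39 ± 0.442 (SD, n = 3 each). Only PRMT2 and PRMT6 had overlapping ranges among neighbours in this order. After silencing PRMT1 and PRMT5 were still first, at 98.4 and 49.0 CPM per kilobase. DDAH2 moved from place 3 to place 4 at 15.6, PRMT6 from place 7 to place 9 at 7.22, and DDAH1 from place 9 to place 7 at 9.81 ± 1.46. In the silenced libraries the range of DDAH2 overlapped those of PRMT7 and PRMT2, and the range of PRMT3 overlapped that of PRMT6, so that these places were not separated. The order depends on the transcript taken as the gene's length: with the union of all annotated exons, PRMT5 was above PRMT1 in control cells and PRMT6 was at place 5.

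The study examined binding by HNRNPK, an RNA-binding protein that PRMT1 is known to methylate, with RNA pull-down, RNA immunoprecipitation and 5′-UTR reporters. It also searched 5′-UTRs for a motif with a short C-rich core. This core, CCACCC or CCACCA or CTACCC or CTACCA on the mRNA strand, was present in an annotated 5′-UTR of 2 of the 9 members, DDAH2 and PRMT2, and in 4826 of 11502 tested genes with a 5′-UTR (42%). The DDAH2 match lies at chr6:31730110-31730135 on the minus strand and that of PRMT2 at chr21:46635698-46635723 on the plus strand, and both are shown with the core in capitals.
DDAH2, core in the 5′-UTR: actcccttctCCACCAactctgtcct
PRMT2, core in the 5′-UTR: aaaggaccgtCCACCCctccgcgctg

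The DDAH2 match shown is in annotated transcripts other than the principal one. The principal transcript of DDAH2 held CCACCC at base 502 and CTACCC at base 83 of its 5′-UTR. PRMT2 held the match shown and 3 further, overlapping matches in its principal transcript. The median log2 fold change of genes with the core was 0.02 and of those without it -0.01. Of the 2 members with the core, DDAH2 stood at -1.21 and PRMT2 at -0.37. These are mRNA levels, whereas the study proposes an effect of HNRNPK on translation, which these values do not measure. HNRNPK mRNA was at 385 ± 15.4 CPM in control and 390 ± 28.3 CPM in silenced libraries (SD, n = 3 each; log2 fold change 0.02, standard error 0.0736, adjusted p = 0.902 by edgeR), and the groups overlapped. The sign of that small difference turned when control replicate 1 or silenced replicate 2 was left out.

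The other genes of the route were described from 6 lists with 62 genes, of which 52 passed the filter on low counts. By edgeR's quasi-likelihood test 6 of the 52 fell and 3 rose at an adjusted p under 0.05, none by more than 2-fold. Over all tested genes 8.27% fell and 8.75% rose at that threshold, and the counts by list below stand beside the same shares. The median log2 fold change of the 52 was -0.00836. Leaving out silenced replicate 1 reduced the 9 genes to 2, leaving out control replicate 1 or control replicate 2 to 4, and leaving out silenced replicate 3 to 5.

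The partners of the methyltransferases moved in both directions. WDR77, the obligate partner of PRMT5 in the methylosome, had 1368, 1580 and 2264 counts in control and 1200, 1281 and 1495 counts in silenced libraries, and its level fell from 137 ± 3.42 to 116 ± 3.91 CPM (SD, n = 3 each; log2 fold change -0.24, standard error 0.0691, adjusted p = 0.0337 by edgeR). WDR77 missed the threshold in 6 of 13 refits, with an adjusted p up to 0.105. BTG1 and BTG2, antiproliferative proteins that bind PRMT1, rose. BTG1 went from 33.7 ± 0.548 to 44.0 ± 2.43 CPM (log2 fold change 0.39, standard error 0.0803, adjusted p = 0.00933 by edgeR), and BTG2 from 11.0 ± 2.71 to 18.9 ± 3.27 CPM (log2 fold change 0.75, standard error 0.180, adjusted p = 0.0174 by edgeR). BTG2 missed the threshold in 3 of 13 refits, with an adjusted p up to 0.0586 by edgeR. For each of the 3 genes the silenced libraries lay entirely on one side of the controls. The remaining 3 partners, CLNS1A, RIOK1 and COPRS, did not pass.

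Of the other arginine methyltransferases, PRMT8, an enzyme of the brain, had 0 counts in all 6 libraries, which allows up to 0.308 CPM in the shallowest one. PRMT9, NDUFAF7 and METTL23 were measured and did not pass the test. The same held for all 7 measured readers and removers of methylarginine, the tudor domain proteins and JMJD6 among them, while PADI4 was below the filter.

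In the methyl donor cycle, 1 gene fell and 1 rose among 10 measured, and MAT1A, the liver form of methionine adenosyltransferase, was below the filter. AHCY hydrolyses S-adenosylhomocysteine, the product that inhibits methyltransferases, and it fell from 338 ± 9.84 to 289 ± 10.3 CPM (SD, n = 3 each; log2 fold change -0.22, standard error 0.0657, adjusted p = 0.0389 by edgeR). AHCY missed the threshold in 6 of 13 refits, with an adjusted p up to 0.154. Its relative AHCYL1, which binds inositol trisphosphate receptors, rose from 203 ± 10.3 to 241 ± 15.0 CPM (log2 fold change 0.24, standard error 0.0742, adjusted p = 0.0446 by edgeR). AHCYL1 missed the threshold in 7 of 13 refits, with an adjusted p up to 0.131 by edgeR. MTAP clears methylthioadenosine, an inhibitor of PRMT5, and had levels of 38.3 ± 0.844 and 36.1 ± 3.31 CPM in overlapping groups (log2 fold change -0.09, adjusted p = 0.533 by edgeR).

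The targets of free methylarginines, the nitric oxide synthases, were hardly detected. NOS1 and NOS2 had 0 counts in all libraries and NOS3 between 0 and 5. AGXT2, the other enzyme known to clear dimethylarginine, ARG1 and GUCY1B1 also had 0 counts, and GUCY1A1 had 1 count in 1 library. Among the 6 measured genes of this list only ASS1 passed. ASS1, which joins citrulline, the product of DDAH1, to aspartate on the way back to arginine, had 9336, 9910 and 14960 counts in control and 5907, 5653 and 8445 counts in silenced libraries. Its silenced levels of 577, 523 and 628 CPM were all below the control levels of 960, 856 and 884 CPM. ASS1 fell from 900 ± 53.7 to 576 ± 52.5 CPM (SD, n = 3 each), 64.0% of control (log2 fold change -0.64, standard error 0.0824, adjusted p = 0.00081 by edgeR). Pseudogenes of ASS1 are among the tested genes, and reads may be shared with them. ASL, ARG2, GCH1 and the arginine carriers SLC7A1 and SLC7A2 did not pass.

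All 20 listed proteins known to carry methylarginine were measured. Of their genes 3 fell while none rose, beside 8.27% lower and 8.75% higher over all tested genes. PABPN1, the nuclear poly(A)-binding protein, fell from 48.1 ± 3.54 to 39.1 ± 1.65 CPM (SD, n = 3 each; log2 fold change -0.29, standard error 0.0842, adjusted p = 0.0358 by edgeR). PABPN1 missed the threshold in 7 of 13 refits, with an adjusted p up to 0.133 by edgeR. The median over this list was -0.06, against -0.000672 over all tested genes.

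**Figure D4:**
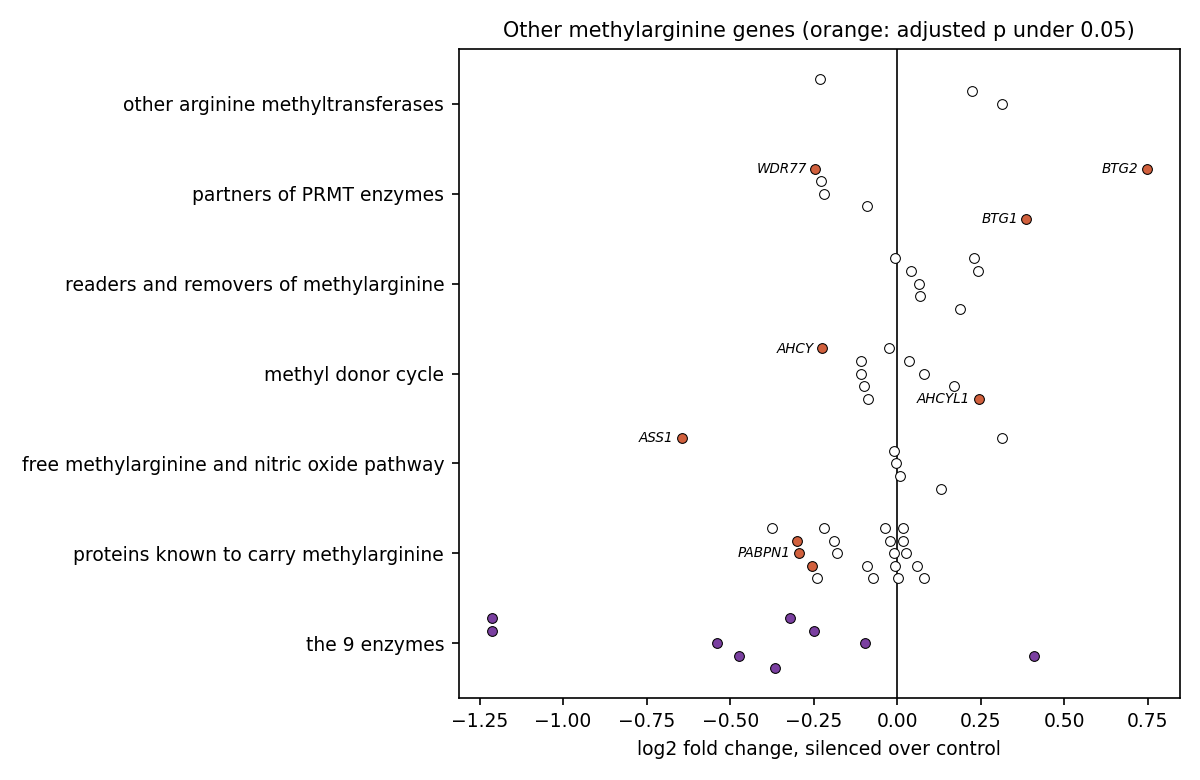
Log2 fold change, silenced over control (horizontal axis), of the 52 measured genes of the 6 lists and, in the bottom line, of the 9 enzymes, with 1 point per gene and orange points for an adjusted p under 0.05. The named genes run from ASS1 at -0.64 to BTG2 at 0.75, and most other points lie close to 0.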

How the data were processed

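Total RNA was taken with Trizol and made into Ion Proton libraries. Per the labels and the study's methods, the authors counted reads per gene with MapSplice and compared groups with DESeq. The deposited values are whole counts without normalization, by gene symbol. The submitters' processing notes list GRCh37, and the treatment of strands and of reads with more than 1 match is not given in the sources used here. Locations and UTRs came from GENCODE 29 on GRCh38.

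Counts were tested with edgeR 4.0.16 (filterByExpr, TMM, quasi-likelihood F test; R 4.3.3, limma 3.58.1) in 3 control against 3 silenced libraries, with Benjamini-Hochberg adjustment over 15250 genes. The study's DESeq was not used here. Genes were called at a fold change over 2 with an adjusted p under 0.05. CPM are counts scaled to 1000000 per TMM-normalized library (factors 0.955 to 1.02), and a standard error is the absolute log2 fold change over the square root of F. For a gene taken alone, the smallest p of an exact permutation test of 3 libraries against 3 is 0.1. The chi-square per degree of freedom between replicates was 3.92 to 26.8, above counting noise, and the floor of 3 counts covers counting error only. The fit was tested on simulated data. UTRs of any annotated protein-coding transcript were searched, and levels per kilobase used the principal transcript.

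Named were all members, FAM83H-AS1, HNRNPK, MTAP, every list gene with an adjusted p under 0.05 (at most 6 per list) except 2 that are not reported here, list genes below the filter, and for each called member the 3 genes of nearest profile, with a mean of at least 50 counts. The remaining list genes, marker genes and overlapping neighbours were named whatever their values. Of the 62 list symbols, 3 were deposited under older symbols (PRMT9 as PRMT10, GUCY1A1 as GUCY1A3 and GUCY1B1 as GUCY1B3). The members and lists were chosen with earlier results of these data known. Alternatives were DESeq2 1.42.0, RLE factors, library size only, other filters on low counts, the replicate number as a block, thinned counts, an adjusted p under 0.01, and each library left out.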

Additional observations from a re-analysis of the deposited data

How the results depend on the processing

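The members were chosen on these libraries, so their values under other settings describe the processing and lend the calls no support. DDAH2 and PRMT6 were the called members under all 14 alternatives. Over the 13 that refit the data, the log2 fold change ran from -1.28 to -1.14 for DDAH2, from -1.27 to -1.16 for PRMT6, from -0.59 to -0.48 for PRMT1, from 0.31 to 0.52 for DDAH1 and from -0.17 to -0.03 for CARM1. Without control replicate 3, the library rich in RNA5-8SP6, they were -1.24 for DDAH2, -1.25 for PRMT6, -0.52 for PRMT1 and 0.37 for DDAH1. DDAH1 lost its adjusted p under 0.05 without control replicate 2 or 3 or without silenced replicate 1 or 2, PRMT2 without control replicate 1 or silenced replicate 2, and PRMT7 without silenced replicate 1. The number of members with an adjusted p under 0.05, 7, ran from 5 to 7 with a library left out, and 4 had one under 0.01. For all tested genes 326 were called, 200 to 335 with a library left out (200 without silenced replicate 1), 148 at an adjusted p under 0.01, 583 among genes with at least 1 count and 199 among those whose every library had at least 10 counts. The 9 list genes that passed became 2 to 7 with a library left out and 2 at an adjusted p under 0.01. ASS1 and BTG1 passed in all 13 refits (adjusted p up to 0.00731 and 0.0376), while AHCYL1 and PABPN1 each failed in 7, WDR77 and AHCY each in 6 and BTG2 in 3. The log2 fold change of HNRNPK ran from -0.0436 (without silenced replicate 2) to 0.0578 with a library left out, and was -0.0166 without control replicate 1.

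With the replicate number as a block, 380 genes were called, 8 members had an adjusted p under 0.05, and 12 list genes passed. PRMT5 was the added member, and it had an adjusted p under 0.05 in 7 of 13 refits. Deviations of libraries with the same number correlated at 0.124, 0.149 and 0.067, not all over 0.1, and the labels give no shared culture or day, so the libraries share only a number. Each library nevertheless correlated best with its own number. The numbers are those of the deposited columns. A supplementary table of the study gives the silenced libraries in another numbering, so that the block and each silenced replicate number hold for the deposited numbering alone. Genes with few counts, such as NOS3, could not be compared at this depth.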

Other observations

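The genes whose profiles over the 6 libraries were nearest to those of the called members, among 12122 genes with a mean of at least 50 counts, were described by the mean absolute difference of centred log2 CPM. For DDAH2 they were PSMG3, a proteasome assembly chaperone, at 0.047, PRKACA, a catalytic subunit of protein kinase A, at 0.0595 and BARX1, a homeobox factor, at 0.0699. Their log2 fold changes were -1.17, -1.18 and -1.32. For PRMT6 they were HMGN1, a nucleosome-binding protein, at 0.05, PPIB, a cyclophilin of the endoplasmic reticulum, at 0.0556 and RPL10, a ribosomal protein, at 0.07, with log2 fold changes of -1.23, -1.23 and -1.32. HMGN1 and RPL10 have processed pseudogenes with which reads may be shared. DDAH2 and PRMT6 differed from each other by 0.0931. Of these 6 neighbours 5 held the word CCAATAA in an annotated 3′-UTR, PSMG3 being the exception, beside 12.7% of tested genes with a 3′-UTR. The word and the 6 genes were both picked from these libraries, so this count is no independent observation. Nearness of profile was measured on the same libraries that chose DDAH2 and PRMT6 and is given as a description.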
